A study of Mus musculus with 6 samples.

Results

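To characterize gene expression in multipotent progenitors (MPPs) in the absence of ING4, RNA-seq counts of ING4-/- MPPs were compared with counts of WT MPPs, and the ratios were set beside those of long-term and short-term hematopoietic stem cells (LT-HSCs and ST-HSCs) from the same marrow pools. Genes were kept when both MPP libraries held at least 10 counts, which left 12753 of 49315 genes, of which 11033 are protein coding. A further 19767 genes had 10 counts in WT MPPs only, 703 had them in ING4-/- MPPs only, and 16092 had them in neither. Marrow of 8 to 10 mice of each genotype was pooled and depleted of lineage-positive cells, and 1000 to 10000 cells of each population were sorted into 1 library. The series holds 6 such libraries, LT-HSCs, ST-HSCs and MPPs of WT mice and the same 3 populations of ING4-/- mice, an ING4-deficient line. The study's methods give the WT strain as C57BL/6 and the age of the controls, which include a CD45.1 congenic strain, as 8 to 12 weeks. They do not give the age of the ING4-/- mice pooled for RNA-seq or the sex of the pooled animals. No treatment is given for any group. No MPP measurement has a replicate, so MPP ratios are reported without a test, and a difference between the 2 libraries cannot be separated from a difference between preparations.

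MPPs sit below the stem cells in the hematopoietic hierarchy. They still give rise to all blood lineages, but they self-renew little, cycle more than HSCs and begin to transcribe genes of the lymphoid, myeloid and erythroid lineages. ING4 is a chromatin reader whose PHD finger binds trimethylated lysine 4 of histone H3, and it directs the HBO1 acetyltransferase complex to chromatin. It has also been linked to p53, NF-kappaB and hypoxia responses, so these pathways are described next to those of blood cell identity, growth and stress.

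The WT and ING4-/- libraries differed in depth and in background. WT libraries held 7839326 to 9363442 counts, and ING4-/- libraries held 35596876 to 39192588. Olfactory and vomeronasal receptor genes (1385 genes), which blood cells are not known to use, carried 18.04 counts per kb of exon in WT MPPs and 22.3 and 22.6 in WT LT-HSCs and ST-HSCs, against at most 0.0882 in ING4-/- libraries. At that density the background made up 22.5% of the WT MPP library and 0.0113% of the ING4-/- MPP library. The expected background of each gene (receptor density times its exonic length) was therefore subtracted before the libraries were scaled, and values below are log2 ratios of ING4-/- over WT from these corrected counts. Levels are given as corrected CPM (counts scaled to library size), always in the order LT-HSC, ST-HSC and MPP, and they compare libraries for 1 gene. Intervals cover counting error and the spread of the receptor genes only, not differences between mice or sorts. Genotype, depth and background go together in all 3 populations and cannot be told apart by subtraction alone. In these bulk libraries, fewer cells that carry a transcript and less of it per cell cannot be told apart either.

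Ing4 itself (chr6:125039760-125049265, mm10, a protein-coding gene with counts over its exons) had 247 counts in WT MPPs, 2.57 times its background, and 76 in ING4-/- MPPs, a ratio of -3.49 (95% interval -4.95 to -2.03). In LT-HSCs it had 247 WT counts and 0 ING4-/- counts, where a count of 0 allows up to 3 counts (0.0843 CPM), and in ST-HSCs 162 and 24. Ing4 was thus lower in the ING4-/- library of each population, and ING4-/- MPPs held more of the remaining counts than the other ING4-/- libraries. Another gene on the same strand overlaps 34.9% of the exonic length of Ing4.

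Transcripts of the markers used to sort MPPs (Lin- Sca1+ cKit+ CD34+ CD48- CD150-) were then examined. Kit was at 974, 666 and 993 CPM in WT and 601, 414 and 861 CPM in ING4-/-. Cd34 was at 176, 409 and 1024 CPM in WT and 259.7, 551 and 1343 CPM in ING4-/-, so the highest value of each genotype was in MPPs. Ly6a, which encodes Sca1, was at 88.9, 57.1 and 86 CPM in WT and 343, 50 and 143 CPM in ING4-/-. All 3 positive markers were thus present in both MPP libraries, with MPP ratios of -0.21, 0.39 and 0.74. Slamf1, which encodes CD150, had 336 WT and 299 ING4-/- counts, a ratio of -2.09 (95% interval -3.20 to -0.97). Cd48 encodes the other marker that the gate should be negative for. It had 376 WT and 4300 ING4-/- counts and was higher in ING4-/- MPPs (1.10, 95% interval 0.90 to 1.31). By contrast, ST-HSCs had 154 and 1077 counts (ratio 0.039) and LT-HSCs 50 and 0. Flt3, a receptor of lymphoid-primed MPPs, had 1956 WT and 10829 ING4-/- counts in MPPs, a ratio of 0.057 (95% interval -0.094 to 0.21), but 286 and 1 in LT-HSCs and a ratio of -1.48 in ST-HSCs.

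Across the 12753 kept genes, the median MPP ratio was 0.019. A ratio over 1, which is more than 2-fold higher in ING4-/- MPPs, was found for 2762 genes (21.7%), and a ratio under -1 for 2852 (22.4%). The genes with higher ratios depended on the background, since 3178 kept genes had a WT count under 2 times their expected background and 1152 were at or under it. Among the 9575 genes at or over 2 times background, 862 (9%) were over 1 and 2397 (25%) under -1. Among the 6431 genes at or over 4 times background, 557 (8.66%) were over 1 and 1183 (18.4%) under -1. The receptor density also described other silent genes only on average. Of 6974 protein-coding genes without a count in any ING4-/- library, the median WT MPP count was 0.796 times the expected background, 19.9% were at or over 2 times and 4.06% at or over 4 times. Each list below is read against these shares, and genes near background are given by their counts.

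The MPP ratio fell with gene length. The kept genes were ordered by exonic length, and the shortest of 4 equal groups (median 1308 bases) had a median ratio of 0.50, followed by 0.23, -0.069 and -0.53 in the groups with medians of 2921, 4701.5 and 8195.5 bases. Without subtraction these medians were 0.51, 0.35, -0.058 and -0.75. At or over 4 times background they were 0.41, 0.064, -0.22 and -0.52, so the trend was also present in genes far above background. Lists of short genes, such as ribosomal proteins and respiratory subunits, and lists of long genes, such as chromatin regulators, differ in length in the same direction as in ratio, and the part of length in their medians was not tested beyond the trend-removed values given for them.

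**Figure D1:**
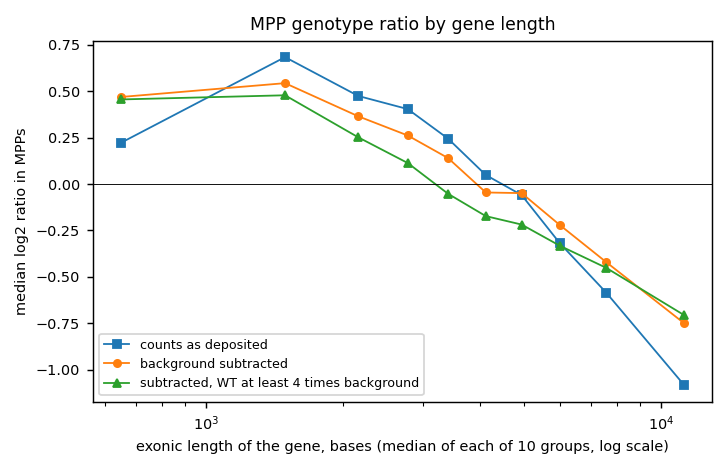
Median log2 ratio of ING4-/- over WT MPPs (y axis) for kept genes split into 10 equal groups by exonic length in bases (x axis, log scale), with counts as deposited, after background subtraction, and after subtraction for genes with a WT count of at least 4 times background. After subtraction the median falls from 0.54 in the second group to -0.75 in the group of longest genes, and from 0.68 to -1.08 with counts as deposited.

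Gene groups with a role in HSC and progenitor function were compared by their median ratio. HSC medians are over the members measured in all populations, which for some lists are fewer than those kept in MPPs. Of 31 lists, 17 had a median above that of all kept genes. Lists for protein synthesis and respiration had the highest medians above background, and immediate-early genes and DNA methylation and Polycomb genes had the lowest.

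**Figure D2:**
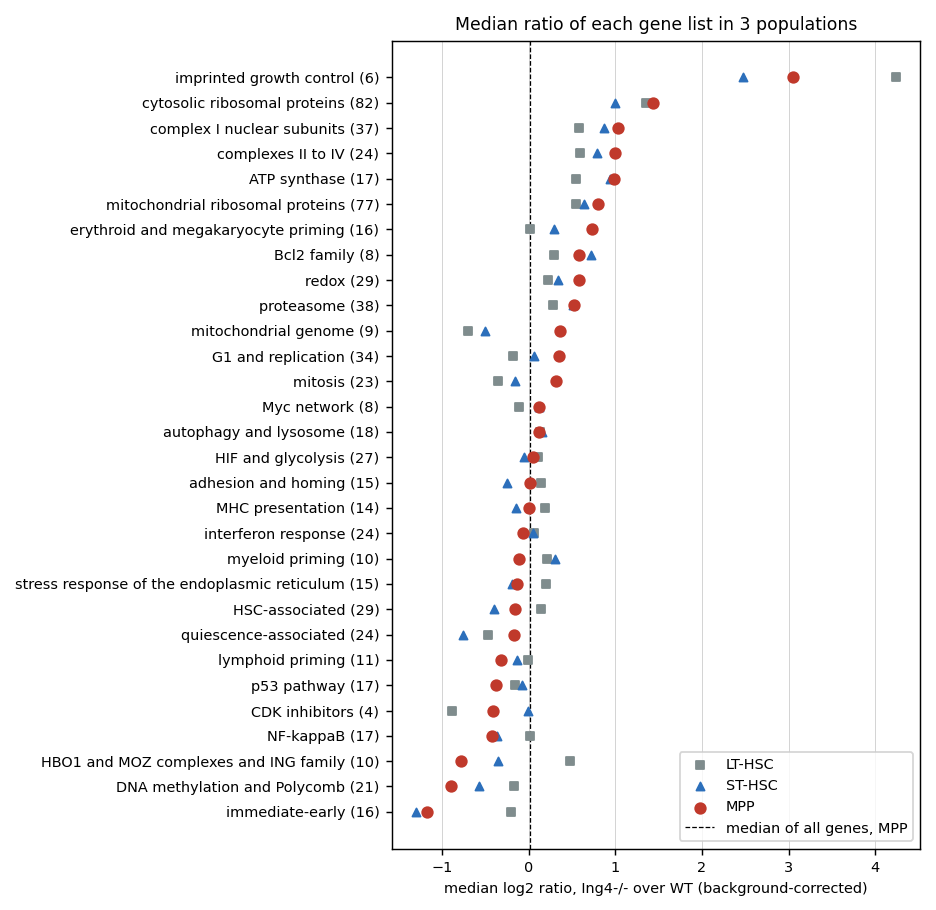
Median log2 ratio of ING4-/- over WT (x axis) of each gene list (y axis, with the number of members measured in all 3 populations), in LT-HSCs (squares), ST-HSCs (triangles) and MPPs (circles). Complex I subunits have medians of 0.58, 0.87 and 1.03 and immediate-early genes of -0.20, -1.30 and -1.17. The imprinted list at the top rests on genes whose WT counts are near background.

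Immediate-early genes had the lowest median of the lists in MPPs. These genes encode transcription factors such as AP-1 and EGR proteins, and feedback regulators of signaling, and they are transcribed within minutes of growth factor, adhesion or stress signals, tissue dissociation included. Of 16 kept members, 10 had a ratio under -1 and 1 had a ratio over 1, against 22.4% and 21.7% of all genes, with a median of -1.17. Over the same members the medians were -0.20 in LT-HSCs and -1.30 in ST-HSCs, and the MPP ratio was below both HSC ratios for 10 of 16, against 29.5% of all genes measured in the 3 populations. The 4 members not kept were Egr2, Egr3, Klf4 and Hspa1a, of which Klf4 was the one at or above background in WT MPPs. The member with a ratio over 1, Hspa1b, had 11 WT counts, which is below background, and 140 ING4-/- counts.

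Jun (chr4:95049034-95052222), the AP-1 subunit with the lowest ratio of the list, was at 2838, 3014 and 3687 CPM in WT and 988, 371 and 497 CPM in ING4-/-. Its MPP ratio was -2.89 (95% interval -2.92 to -2.87), compared with -1.52 in LT-HSCs and -3.02 in ST-HSCs. Every ING4-/- library was below every WT library. Fos, the AP-1 partner of Jun, was at 2409.7, 1756 and 2617 CPM in WT and 1659, 704 and 1107 CPM in ING4-/-. The Fos ratio was -1.24 (95% interval -1.27 to -1.22) in MPPs, -0.54 in LT-HSCs and -1.32 in ST-HSCs. Junb, a further AP-1 subunit, was at 829, 494 and 778 CPM in WT and 800.1, 174 and 264 CPM in ING4-/-. In LT-HSCs the Junb values of the 2 genotypes were nearly equal, whereas in MPPs the ratio was -1.56 (95% interval -1.61 to -1.51). Egr1, a zinc finger factor that restrains HSC division, had ratios of -2.18 in MPPs, -1.68 in LT-HSCs and -2.05 in ST-HSCs. Ier2, a nuclear protein induced with Fos, had a ratio of -1.79 in MPPs, -0.42 in LT-HSCs and -1.66 in ST-HSCs. Zfp36, which destabilizes AU-rich mRNA, had a ratio of -1.35 in MPPs, -0.74 in LT-HSCs and -1.59 in ST-HSCs. Klf6, a Kruppel-like factor, had a ratio of -1.45 in MPPs, -0.20 in LT-HSCs and -1.28 in ST-HSCs. Dusp1, a phosphatase that inactivates MAP kinases, had a ratio of -1.09 in MPPs, -0.26 in LT-HSCs and -0.70 in ST-HSCs, and Nr4a1, an orphan nuclear receptor linked to HSC quiescence, one of -1.0 in MPPs, -0.89 in LT-HSCs and -1.83 in ST-HSCs. Thus for Jun, Fos, Junb, Ier2, Zfp36 and Klf6 the MPP ratio was nearer to the ST-HSC ratio than to the LT-HSC ratio. Ier5, at a ratio of -1.41, was the remaining member under -1, and its WT counts in HSCs were at or under background. The pattern did not cover the list, as Fosb (0.23), Jund (0.72), Atf3 (-0.16), Ier3 (-0.23) and Socs3 (-0.46) had MPP ratios above -0.5.

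Promoters of 4 members with ratios under -1 are shown because they hold letters of the cAMP response element, through which many immediate-early genes are induced. They were picked for holding them, and other members with ratios under -1 do not. The sequences are the 250 bases upstream of the RefSeq transcription start (GRCm38.p6, gene strand), with each copy of the half-site TGACG, or its reverse complement CGTCA, in capitals. Fos lies at chr12:85473640-85473889 on the plus strand, Junb at chr8:84978749-84978998 on the minus strand, Dusp1 at chr17:26508473-26508722 on the minus strand and Nr4a1 at chr15:101266596-101266845 on the plus strand.
Fos: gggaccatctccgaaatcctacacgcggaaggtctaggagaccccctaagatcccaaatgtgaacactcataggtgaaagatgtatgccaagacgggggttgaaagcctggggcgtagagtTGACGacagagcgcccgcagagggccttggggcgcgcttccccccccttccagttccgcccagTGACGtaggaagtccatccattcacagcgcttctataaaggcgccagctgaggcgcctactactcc
Junb: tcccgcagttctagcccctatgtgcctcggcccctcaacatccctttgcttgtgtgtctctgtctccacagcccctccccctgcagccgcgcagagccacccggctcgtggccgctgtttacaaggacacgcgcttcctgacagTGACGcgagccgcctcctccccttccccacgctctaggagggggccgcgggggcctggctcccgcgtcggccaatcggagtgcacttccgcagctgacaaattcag
Dusp1: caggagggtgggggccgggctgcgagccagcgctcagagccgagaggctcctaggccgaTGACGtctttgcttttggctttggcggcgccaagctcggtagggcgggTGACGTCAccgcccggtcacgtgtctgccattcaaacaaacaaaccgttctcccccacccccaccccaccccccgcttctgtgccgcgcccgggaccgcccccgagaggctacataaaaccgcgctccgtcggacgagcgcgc
Nr4a1: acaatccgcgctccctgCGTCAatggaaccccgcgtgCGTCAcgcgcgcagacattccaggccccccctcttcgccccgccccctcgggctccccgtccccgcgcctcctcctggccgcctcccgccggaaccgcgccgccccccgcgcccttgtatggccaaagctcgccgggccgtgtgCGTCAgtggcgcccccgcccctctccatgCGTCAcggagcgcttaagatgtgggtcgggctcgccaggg
The windows hold 2, 1, 3 and 4 half-sites, and 2 of the 3 in Dusp1 overlap as the whole element TGACGTCA. Of 17 list genes with a promoter in the table, 7 had a half-site on either strand and 1 had the whole element, compared with 17.9% and 1.62% of 27025 promoters of the same length. Among kept members the half-site was in 4 of the 8 promoters of genes with a ratio under -1 and not in those of Jun, Klf6, Zfp36 and Ier5, and it was in 2 of the 6 other promoters, those of Fosb and Atf3. These matches describe the letters of the windows and are not evidence of binding.

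**Figure D3:**
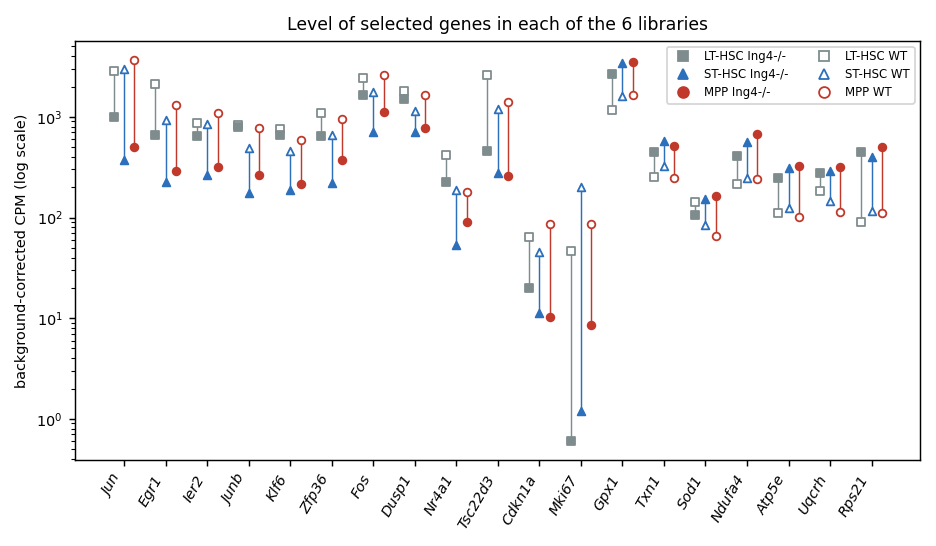
Background-corrected CPM (y axis, log scale) of selected genes (x axis) in each of the 6 libraries, with open symbols for WT and filled symbols for ING4-/- (squares LT-HSCs, triangles ST-HSCs, circles MPPs). Jun, Egr1, Tsc22d3, Cdkn1a and Mki67 are lower in every ING4-/- library, Gpx1, Txn1, Ndufa4, Atp5e, Uqcrh and Rps21 are higher in every one, and Sod1 is higher in ING4-/- MPPs and ST-HSCs but not LT-HSCs.

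Transcripts for the ribosome were the highest group of genes well above background. All 82 kept cytosolic ribosomal protein genes had WT counts at or over 2 times background, 72 had a ratio over 1 and 0 a ratio under -1, with a median of 1.44. The medians were 1.36 in LT-HSCs and 1.00 in ST-HSCs. Rps21, a small subunit protein, was at 89.2, 115 and 112 CPM in WT and 444, 395 and 504 CPM in ING4-/-, and its MPP ratio of 2.17 (95% interval 2.06 to 2.29) was the highest of the list. Rps12 and Rps15a followed with ratios of 2.09 and 2.04. Rpl4, a large subunit protein, had a ratio of 0.33 and the small subunit gene Rps3a1 one of -0.68, the only member with a negative MPP ratio. Ribosomal protein genes have many processed pseudogenes, and reads shared with these copies can be split differently between libraries. Mitochondrial ribosomal proteins had a lower median of 0.80, with 26 of 77 over 1 and 0 under -1, and medians of 0.54 in LT-HSCs and 0.63 in ST-HSCs. Mrpl41 (1.91, 95% interval 1.57 to 2.26) and Mrpl36 (1.64, 95% interval 1.46 to 1.83), both of the large mitochondrial subunit, had HSC ratios of 0.73 in LT-HSCs and 0.46 in ST-HSCs and 0.051 in LT-HSCs and 1.03 in ST-HSCs.

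Nuclear-encoded subunits of the respiratory chain were higher in ING4-/- MPPs. Complex I, which oxidizes NADH, had 20 of 37 subunits over 1 and 0 under -1, with a median of 1.03 against 0.58 in LT-HSCs and 0.87 in ST-HSCs. The MPP ratio exceeded both HSC ratios for 23 of 37 subunits, compared with 34.6% of all genes measured in the 3 populations. All 37 had WT MPP counts at or over 4 times background, and 2296 of 6008 such genes exceeded both HSC ratios. Ndufa4 was at 217, 249 and 241 CPM in WT and 405, 559 and 673 CPM in ING4-/-, a ratio of 1.48 (95% interval 1.40 to 1.56). Ndufb11 (1.44) and Ndufa11 (1.40) were next, and Ndufs1, the largest subunit, was the lowest at a ratio of -0.36. Complexes II to IV had 12 of 24 members over 1, with a median of 1.00 against 0.60 in LT-HSCs and 0.79 in ST-HSCs. Uqcrh, the hinge protein of complex III, was at 184, 145 and 113 CPM in WT and 279, 292 and 319 CPM in ING4-/-. Its ratio was 1.5 (95% interval 1.38 to 1.62) in MPPs, 0.61 in LT-HSCs and 1.01 in ST-HSCs. By contrast, the catalytic succinate dehydrogenase subunit Sdha (0.18) and cytochrome c1, encoded by Cyc1 (0.035), differed little. ATP synthase had 7 of 17 members over 1 and a median of 0.99 against 0.54 in LT-HSCs and 0.94 in ST-HSCs, led by Atp5e at a ratio of 1.69 (95% interval 1.54 to 1.84), and the catalytic subunits Atp5a1 and Atp5b had ratios of 0.57 and 0.49. In these 3 lists 0 members had a ratio under -1, compared with 22.4% of all genes. After removal of the length trend, their medians were 0.62, 0.58 and 0.92, that of the cytosolic ribosome was 1.05, and that of all genes was 0.12. The proteasome had a smaller difference, with 3 of 38 members over 1 and a median of 0.53. Psmb6, a catalytic subunit, had a ratio of 1.20 in MPPs, 0.0036 in LT-HSCs and 0.60 in ST-HSCs.

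Transcripts of the mitochondrial genome had higher ratios in MPPs than in either HSC population. Of 10 kept genes, 0 were over 1 and 3 were under -1, with a median of 0.045. Over the 9 genes measured in all populations, the median was 0.37 in MPPs, -0.70 in LT-HSCs and -0.50 in ST-HSCs, and the MPP ratio was above both HSC ratios for all 9 and by over 1 for 4, against 34.6% and 6.7% of all genes. mt-Co1, the catalytic subunit of complex IV, was at 3626, 2704 and 2018 CPM in WT and 5705, 4385 and 3743 CPM in ING4-/-. mt-Nd4, a proton-pumping subunit of complex I, was at 881, 774 and 402 CPM in WT and 760.3, 546 and 619.9 CPM in ING4-/-. Its ratio was therefore positive in MPPs (0.63) and negative in HSCs (-0.21 in LT-HSCs and -0.50 in ST-HSCs). mt-Nd5 was at 2986, 2389 and 1006 CPM in WT and 742, 387 and 511 CPM in ING4-/-. The WT MPP values of mt-Nd4 and mt-Nd5 were below those of both WT HSC libraries, whereas the ING4-/- MPP values were between the ING4-/- LT-HSC and ST-HSC values. For mt-Co1 the MPP value was the lowest of the 3 in both genotypes. The genes of the mitochondrial genome took 0.492% of the WT MPP library and 0.936% of the ING4-/- MPP library. Many mitochondrial genes have nuclear copies that share reads with them.

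Redox genes had a median above that of all genes. Of 29 members, 6 were over 1 and 2 under -1, with a median of 0.58 against 0.23 in LT-HSCs and 0.34 in ST-HSCs. Gpx1, which reduces hydrogen peroxide with glutathione, was at 1182, 1599.5 and 1631 CPM in WT and 2669, 3393 and 3522 CPM in ING4-/-. The Gpx1 ratio was 1.11 (95% interval 1.08 to 1.14) in MPPs, 1.17 in LT-HSCs and 1.08 in ST-HSCs. Txn1, the cytosolic thioredoxin, was at 254, 328 and 248 CPM in WT and 452, 574 and 513 CPM in ING4-/-, a ratio of 1.05 (95% interval 0.97 to 1.12). Both transcripts were higher in each ING4-/- population by a similar amount. Prdx1, a peroxiredoxin that thioredoxin recycles, had a ratio of 1.13 in MPPs, 0.90 in LT-HSCs and 0.91 in ST-HSCs. Sod1, the cytosolic superoxide dismutase, was at 142, 83.6 and 65.7 CPM in WT and 106, 154 and 164 CPM in ING4-/-, so that its ratio of 1.32 (95% interval 1.17 to 1.47) in MPPs stood against -0.42 in LT-HSCs and 0.88 in ST-HSCs. Txnrd2, the mitochondrial thioredoxin reductase, was lower, with a ratio of -1.15 (95% interval -1.54 to -0.75), and Gclc, the catalytic subunit that limits glutathione synthesis, had a ratio of -1.06 (95% interval -2.33 to 0.21).

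Cell cycle genes did not share a direction. Genes of G1 and DNA replication had 7 of 36 members over 1 and 2 under -1, with a median of 0.32 against -0.19 in LT-HSCs and 0.06 in ST-HSCs. Rrm2 and Tk1, which supply deoxynucleotides, had ratios of 1.22 (95% interval 0.85 to 1.58) and 1.23 (95% interval 0.66 to 1.81), and Rbl2, the p130 pocket protein of quiescent cells, was lower, with a ratio of -1.21 (95% interval -1.56 to -0.85). Mitotic genes had 7 of 33 over 1 and 6 under -1, close to the shares of all genes, with a median of 0.087. At or over 2 times background 6 of 29 were over 1 and 4 under -1 (9% and 25% of all such genes). Their median was 0.22 against -0.18 for all such genes. Ccna2, which encodes cyclin A2, was at 29.4, 149 and 58.4 CPM in WT and 45.5, 245 and 151 CPM in ING4-/-. Ube2c, a partner of the anaphase-promoting complex, was at 9.08, 101 and 26.1 CPM in WT and 8.41, 131 and 91.5 CPM in ING4-/-. In both cases ST-HSCs had more transcript than MPPs in each genotype. Mki67, the gene of the proliferation antigen Ki-67, went the other way and was at 46.1, 201 and 85.8 CPM in WT and 0.605, 1.2 and 8.54 CPM in ING4-/-. The Mki67 ratio of -3.33 (95% interval -4.02 to -2.63) in MPPs was less negative than -6.25 in LT-HSCs and -7.38 in ST-HSCs, and its WT MPP count was 4.3 times background over an exonic length of 10061 bases. Hmmr (-1.33) and Bub1b (-1.11), both spindle genes, were also lower.

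Among CDK inhibitors, Cdkn1a, the p21 gene and a target of p53, was at 64.4, 45.6 and 85.7 CPM in WT and 20, 11.2 and 10.2 CPM in ING4-/-. Its ratio was -3.07 (95% interval -3.31 to -2.83) in MPPs, -1.69 in LT-HSCs and -2.02 in ST-HSCs, and the WT level was highest in MPPs whereas the ING4-/- level was lowest there. Cdkn1c, the p57 gene of quiescent HSCs, could be seen in the ING4-/- libraries only, with 1295, 1361 and 638 counts in LT-HSCs, ST-HSCs and MPPs. In WT it had 47, 28 and 31 counts, and the MPP count was 0.843 times background, so no ratio is given. Cdkn1b (p27) had a ratio of -0.30 (95% interval -1.83 to 1.23), and the whole list had 1 of 6 over 1 and 2 under -1. Trp53 itself was at 184, 234 and 222 CPM in WT and 212, 221 and 249 CPM in ING4-/-, a ratio of 0.16 (95% interval 0.034 to 0.29). Members of the p53 pathway had 4 of 22 over 1 and 7 under -1 (21.7% and 22.4% of all genes), with a median of -0.43. After removal of the length trend the list median was -0.48 and that of all genes 0.12. Over the 17 members measured in all populations the medians were -0.38 in MPPs, -0.15 in LT-HSCs and -0.080 in ST-HSCs. Of these, 8 were below both HSC ratios, against 29.5% of all genes measured in the 3 populations. Plk2, a p53-induced kinase, had a ratio of -2.0 in MPPs, -0.40 in LT-HSCs and -3.51 in ST-HSCs, Rrm2b one of -1.96 in MPPs, -0.51 in LT-HSCs and -0.69 in ST-HSCs, and Sesn1, a stress-induced inhibitor of mTORC1, one of 0.47 in MPPs, -0.15 in LT-HSCs and 0.49 in ST-HSCs.

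Genes associated with quiescence had a median near that of all genes (-0.029), with 6 of 25 over 1 and 5 under -1. At or over 2 times background 2 of 19 were over 1 and 5 under -1, with a median of -0.38 against -0.18 for all such genes. Tsc22d3, a glucocorticoid-induced leucine zipper gene, was at 2587, 1198 and 1413 CPM in WT and 456, 277 and 257 CPM in ING4-/-. All ING4-/- libraries were below all WT libraries, with ratios of -2.46 in MPPs, -2.50 in LT-HSCs and -2.11 in ST-HSCs. Tsc1, an inhibitor of mTORC1, had a ratio of -2.96 (95% interval -3.78 to -2.13) in MPPs, -0.52 in LT-HSCs and -2.27 in ST-HSCs, and Skil, a repressor of SMAD signaling, -1.93 (95% interval -2.80 to -1.06) in MPPs, -0.45 in LT-HSCs and 0.63 in ST-HSCs. Myc had a ratio of -0.068. Mycn, the paralog of Myc in stem cells, had a ratio of 0.94 (95% interval 0.64 to 1.24), and Mga, a repressor that binds MAX, -1.82 (95% interval -2.46 to -1.17).

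HSC-associated genes had 3 of 30 over 1 and 5 under -1, with a median of -0.11 against 0.15 in LT-HSCs and -0.40 in ST-HSCs. Vwf (chr6:125546774-125686679), von Willebrand factor and a marker of platelet-biased HSCs, was at 214, 62.5 and 80.6 CPM in WT and 211, 76.2 and 8.34 CPM in ING4-/-. Its MPP ratio was -3.27 (95% interval -4.42 to -2.12), compared with -0.02 in LT-HSCs and 0.29 in ST-HSCs, and the WT MPP count was 2.94 times background. Mecom, which encodes the HSC regulator EVI1, was at 156, 123 and 149 CPM in WT and 154, 83.8 and 48.5 CPM in ING4-/-. The ratio of Mecom was thus -1.62 (95% interval -2.11 to -1.14) in MPPs, -0.022 in LT-HSCs and -0.55 in ST-HSCs. Hlf, a transcription factor restricted to HSCs and early progenitors, had a positive ratio under 1 (0.67, 95% interval 0.38 to 0.96). Ndn, which encodes necdin, was higher (1.38, 95% interval 0.63 to 2.13). Procr (-0.057) and Meis1 (-0.052) differed little, and Hoxa9 had a ratio of -0.91 in MPPs, -2.12 in LT-HSCs and -1.11 in ST-HSCs.

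Lineage genes that MPPs begin to transcribe were mixed. Dntt, the terminal transferase of lymphoid progenitors, went from 78 counts through 160 to 190 along the WT libraries and from 1 through 277 to 2961 along the deeper ING4-/- libraries (LT-HSC, ST-HSC, MPP). Its MPP ratio of 1.79 (95% interval 1.18 to 2.40) stood against -1.74 in ST-HSCs, and ING4-/- MPPs held the highest of the 6 levels (75.2 CPM). Ighm, the immunoglobulin mu chain, had 81 and 2215 counts, a ratio of 3.06 (95% interval 1.39 to 4.74), and Ikzf1, the lymphoid factor Ikaros, had a ratio of -0.52 (95% interval -0.89 to -0.15). Lymphoid genes as a list had 3 of 16 over 1 and 2 under -1, with a median of -0.067. Plac8, a gene of early myeloid and lymphoid progenitors, was at 39.2, 63.8 and 99.5 CPM in WT and 35.8, 110.5 and 299.5 CPM in ING4-/-. In both genotypes its level rose in the order LT-HSC, ST-HSC, MPP, and the ratio was 1.59 (95% interval 1.45 to 1.73) in MPPs, -0.13 in LT-HSCs and 0.79 in ST-HSCs. The granule genes Prtn3 (0.57) and Mpo (0.091) differed by less than 2-fold, Csf2rb, the common beta chain of IL-3 and GM-CSF receptors, was lower (-1.44, 95% interval -1.91 to -0.96), and the myeloid list had 2 of 15 over 1 and 3 under -1. Over the 16 erythroid and megakaryocyte genes measured in all populations, the median was 0.73 in MPPs, 0.012 in LT-HSCs and 0.29 in ST-HSCs. Over the members kept in MPPs, this list had the highest median of the lineage lists (0.66, 8 of 20 over 1 and 4 under -1). That order changed for genes well above background. At or over 2 times background 4 of 16 were over 1 and 4 under -1, and at or over 4 times 2 of 13 were over 1 and 4 under -1, with a median of -0.023 against 0.045 for the lymphoid list. Pf4, platelet factor 4, had a ratio of 1.42 (95% interval 1.11 to 1.74), Gata1, the erythroid and megakaryocyte regulator, 1.17 (95% interval 0.59 to 1.75), and Tfrc, the transferrin receptor, -2.81 (95% interval -3.54 to -2.07).

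DNA methylation and Polycomb genes had 2 of 21 over 1 and 10 under -1, with a median of -0.90 against -0.17 in LT-HSCs and -0.57 in ST-HSCs, and among the 15 members at or over 2 times background 0 were over 1 and 9 under -1 (25% of all such genes were under -1). The DNA methyltransferases Dnmt1 (-1.15), Dnmt3a (-1.15) and Dnmt3b (-1.23) were all lower in MPPs and also in both HSC populations, where they lay between -2.41 and -0.55. Ezh1 (chr11:101191115-101226463), the Polycomb methyltransferase of non-dividing cells, was at 112, 67.3 and 114 CPM in WT and 142, 69 and 20.2 CPM in ING4-/-. Its MPP ratio was -2.49 (95% interval -2.89 to -2.09), whereas the ratios were 0.35 in LT-HSCs and 0.035 in ST-HSCs. Ezh2, the paralog used by dividing cells, had an MPP ratio of 0.41 (95% interval -0.18 to 1.00) and ratios of -0.64 in LT-HSCs and -0.57 in ST-HSCs. The other subunits diverged, with Suz12 at a ratio of -2.02 and Eed at a ratio of 0.77. Tet2, which oxidizes 5-methylcytosine, was at 88.9, 82.6 and 76.2 CPM in WT and 0.315, 0.483 and 13 CPM in ING4-/-, so its ratio of -2.55 (95% interval -3.82 to -1.28) in MPPs was less negative than -8.14 in LT-HSCs and -7.42 in ST-HSCs. After removal of the length trend the list median was -0.48.

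Members of the HBO1 and MOZ complexes and of the ING family are the partners and relatives of ING4. Of these, 4 of 14 were over 1 and 3 under -1 (21.7% and 22.4% of all genes), with a median of -0.75. At or over 2 times background 1 of 11 was over 1 and 3 under -1 (9% and 25% of all such genes). After removal of the length trend the list median was -0.19 and that of all genes 0.12. Kat7, which encodes HBO1, was at 232, 227 and 233 CPM in WT and 51.9, 118 and 140.2 CPM in ING4-/-. Its ratio was -0.73 (95% interval -0.89 to -0.57) in MPPs, -2.16 in LT-HSCs and -0.94 in ST-HSCs. Ing5, the other ING protein of the HBO1 complex, had a ratio of -0.97 (95% interval -1.35 to -0.59) and ratios of -1.30 in LT-HSCs and -0.42 in ST-HSCs, and Ing1, which belongs to a deacetylase complex, was higher at a ratio of 1.04 (95% interval 0.41 to 1.67). Ing2 (-1.86) and Ing3 (-1.22) were lower. Meaf6, a shared subunit, had a ratio of 0.74 (95% interval -0.032 to 1.52), an interval that includes 0.

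NF-kappaB genes had 1 of 18 members over 1, 7 under -1 and 5 above 0 (21.7% of all genes were over 1 and 22.4% under -1). The median of the list was -0.43 against 0.021 in LT-HSCs and -0.37 in ST-HSCs. Rel, an NF-kappaB subunit of lymphoid cells, had 513 WT and 420 ING4-/- counts and a ratio of -2.35 (95% interval -3.16 to -1.54), Ikbkb, the kinase that releases NF-kappaB from its inhibitors, 2077 WT and 2937 ING4-/- counts and -1.74 (95% interval -2.18 to -1.29), and Nfkbib, an inhibitor, 308 WT and 2673 ING4-/- counts and 0.82 (95% interval 0.44 to 1.19). Genes of hypoxia and glycolysis had a median of 0.11, with 3 of 28 over 1 and 2 under -1. Within them the phosphofructokinase gene Pfkm was at 46.4, 68.8 and 118 CPM in WT and 69.5, 92.6 and 40.5 CPM in ING4-/-, a ratio of -1.55 (95% interval -1.74 to -1.36) in MPPs, 0.58 in LT-HSCs and 0.43 in ST-HSCs, and Pfkp had a ratio of -1.09 in MPPs, 0.69 in LT-HSCs and -0.35 in ST-HSCs. Aldoc (1.04) was higher, and Pgam1 (0.69) and Gapdh (0.60) had positive ratios under 1. Aldoa, another aldolase gene, had a ratio of 0.045, so these signs describe single genes and not steps of glycolysis.

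Of the remaining lists, those of interferon response, MHC presentation, adhesion, endoplasmic reticulum stress, autophagy and the Myc network had medians between -0.14 and 0.13. Within the interferon list, 2 of 26 were over 1 and 6 under -1. Stat2, a subunit of the interferon-induced factor ISGF3, had a ratio of -1.70 (95% interval -2.19 to -1.21) in MPPs, 1.14 in LT-HSCs and 0.40 in ST-HSCs, and Irf7 -1.82 (95% interval -2.25 to -1.39) in MPPs, -0.88 in LT-HSCs and -1.66 in ST-HSCs. Of the MHC genes, B2m had a ratio of 0.67 and the transactivator Nlrc5 one of -2.60, with Nlrc5 also lower in HSCs (-2.82 in LT-HSCs and -3.41 in ST-HSCs). S1pr1, the receptor that guides progenitor egress toward sphingosine 1-phosphate, was at 83.6, 35.6 and 117 CPM in WT and 65.5, 52.1 and 18.4 CPM in ING4-/-. WT MPPs had the highest S1pr1 level and ING4-/- MPPs the lowest, with an MPP ratio of -2.67 (95% interval -2.88 to -2.46) against -0.35 in LT-HSCs and 0.55 in ST-HSCs. Atf4, the effector of the integrated stress response, had a ratio of -1.18 in MPPs, -1.67 in LT-HSCs and -1.18 in ST-HSCs. The Bcl2 family had 5 of 12 over 1 and 0 under -1, and 2 of 7 over 1 at or over 2 times background. Its anti-apoptotic member Bcl2l1 had a ratio of 1.28 in MPPs, -0.79 in LT-HSCs and 0.46 in ST-HSCs, and Mcl1 one of -0.62 in MPPs, 0.25 in LT-HSCs and -2.20 in ST-HSCs. Of 15 imprinted genes, 8 were kept, 5 of them under 2 times background in WT, so the list median of 1.99 is not interpretable. Impact, at a ratio of -1.18 (95% interval -1.63 to -0.74), Grb10, at a ratio of 0.041 (95% interval -0.58 to 0.66), and Ndn were the 3 members above that level.

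The lowest ratios among protein-coding genes with at least 50 counts in both MPP libraries and a WT count of at least 2 times background were those of Gm10801, Gm10800 and Gm21738, with ratios of -11.12, -10.99 and -10.71. Gm10800 had 484762 counts (5.18% of the library) in WT and 1347 in ING4-/-. These predicted genes had ratios under -10 in both HSC populations as well, and they are reported as uncertain because near-identical copies can share their reads. The next were Syne1 (-6.09, 95% interval -8.03 to -4.14) and Ttn (-5.80, 95% interval -7.82 to -3.78), with very long transcripts and WT counts of 2.15 and 2.09 times background. Kif3b, a kinesin subunit, had 567 WT and 52 ING4-/- counts, and Fnbp4, a splicing-associated protein, 1122 WT and 140 ING4-/- counts, ratios of -5.66 (95% interval -6.30 to -5.03) and -5.34 (95% interval -5.71 to -4.98). Myo9a, Ugt1a6a and Rapgef2 had ratios of -5.60, -5.47 and -5.22. Ugt1a6a shares 50.3% of its exonic length with other genes of the Ugt1a locus on the same strand. The highest within the same limits were Tnfaip8l2, an inhibitor of immune receptor signaling, with 56 WT and 1457 ING4-/- counts (2.85, 95% interval 1.48 to 4.23), Selenot (2.60), Lipt2 (2.56), Lyl1, a bHLH factor of HSCs and lymphoid progenitors (2.50, 95% interval 0.97 to 4.03), Utp23 (2.50), Wfdc17 (2.50, 95% interval 2.13 to 2.86), Slc16a13 (2.47), Trp53rka (2.47), Bcdin3d (2.46) and Rcan3, a calcineurin regulator (2.42). Of these 10 genes, Wfdc17 was 11.3 times background in WT MPPs and the others were between 2.05 and 2.97 times. A further 428 genes with 50 counts in both libraries had higher ratios but WT counts under 2 times background, and they are not ranked.

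To find what separated MPPs from HSCs, 6011 protein-coding genes were compared that held 50 or more counts in all 6 libraries and WT counts of at least 2 times background in each population. Of these, 511 (8.5%) had an MPP ratio over 1 and 928 (15.4%) under -1. The ratio was over 1 in all 3 populations for 106 genes and under -1 in all 3 for 425, whereas 226 genes were over 1 and 198 under -1 in MPPs without either HSC population passing the same limit. Across these genes the MPP ratios had a Pearson r of 0.538 with LT-HSC ratios and 0.664 with ST-HSC ratios, and LT-HSC with ST-HSC ratios 0.552. Each r is over genes that share 2 libraries per axis, length and background, and is a description. Their SD was smallest in MPPs (0.987, against 1.26 in LT-HSCs and 1.11 in ST-HSCs). Each population was scaled by itself, and the median ratio of these genes was -0.013 in MPPs, -0.18 in LT-HSCs and -0.15 in ST-HSCs. The part of this offset in the counts that follow was not tested. The MPP ratio was above both HSC ratios for 2534 genes (42.2%) and below both for 1356 (22.6%), and by over 1 for 318 (5.29%) and 168 (2.79%). The MPP ratio had the opposite sign to both HSC ratios for 830 genes (13.8%), of which 564 were positive in MPPs, and 4 genes were over 1 in MPPs and under -1 in both HSC populations, and 0 genes had the opposite pattern. They were Phf1, a Polycomb-associated reader (1.09 in MPPs, -1.01 in LT-HSCs and -2.32 in ST-HSCs), Pinx1, a telomerase inhibitor (1.16, -3.06 and -1.03), Pomk, a kinase of dystroglycan O-mannose glycans (1.07, -1.49 and -2.09), and the zinc finger gene Zfp52 (1.01, -3.94 and -1.23). Phf1, Pinx1 and Zfp52 were named after their values were seen.

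**Figure D4:**
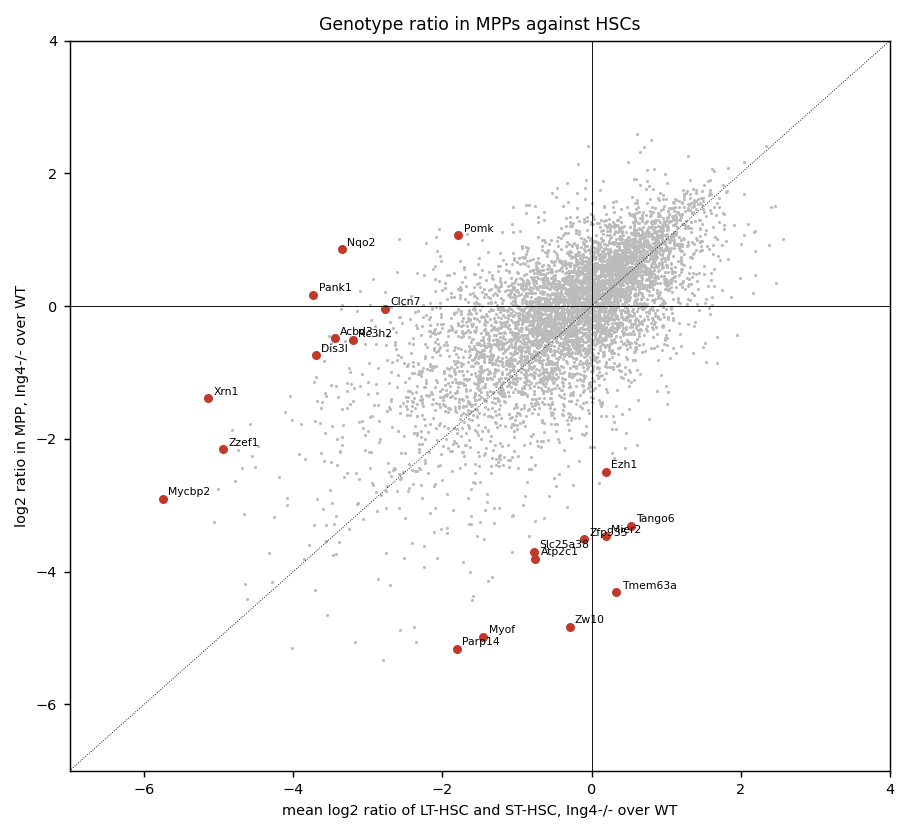
Log2 ratio of ING4-/- over WT in MPPs (y axis) against the mean of the LT-HSC and ST-HSC log2 ratios (x axis) for protein-coding genes of 50 or more counts in all 6 libraries and WT counts of at least 2 times background, with equal ratios on the dotted line. The 20 genes whose MPP ratio lies farthest beyond both HSC ratios are named, from Zw10 at -4.84 below the line to Pank1 at 0.17 above it, and 3 genes outside the axes (Gm10800, Gm10801 and Gm21738) are not drawn.

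The genes farthest below both HSC ratios were led by Zw10 (chr9:49055613-49078775), which encodes a kinetochore and vesicle tethering protein. Zw10 was at 73.7, 81.2 and 72.5 CPM in WT and 61.9, 64.1 and 2.53 CPM in ING4-/-, so a single library, that of ING4-/- MPPs, was low. The ratio was -4.84 (95% interval -5.27 to -4.41) in MPPs, -0.25 in LT-HSCs and -0.34 in ST-HSCs. Tmem63a, a mechanosensitive cation channel, was at 67.5, 40.1 and 72.6 CPM in WT and 161, 26.7 and 3.65 CPM in ING4-/-. Again the ING4-/- MPP library alone was low, with a ratio of -4.31 (95% interval -4.76 to -3.87). Tango6, involved in Golgi transport, had a ratio of -3.32 (95% interval -3.84 to -2.79) against 0.27 in LT-HSCs and 0.78 in ST-HSCs. The interferon-induced mono-ADP-ribosyltransferase Parp14 (-5.17 against -1.86 in LT-HSCs and -1.76 in ST-HSCs) and the membrane repair protein Myof (-4.99 against -1.63 in LT-HSCs and -1.27 in ST-HSCs) were lower in all populations but most so in MPPs. Mier2 (-3.47), Zfp935 (-3.51), the mitochondrial glycine carrier Slc25a38 (-3.71), the Golgi calcium pump Atp2c1 (-3.80) and Ezh1 completed the 10. The genes farthest above both HSC ratios were, in general, lower in ING4-/- HSCs rather than higher in ING4-/- MPPs. Pank1, the first enzyme of coenzyme A synthesis, was at 38.2, 37.7 and 24.3 CPM in WT and 1.88, 4.36 and 27.2 CPM in ING4-/-, and its MPP ratio was 0.17 (95% interval -0.74 to 1.07) against -4.35 in LT-HSCs and -3.11 in ST-HSCs. Xrn1, the main cytoplasmic exoribonuclease, had a ratio of -1.39 in MPPs, -6.35 in LT-HSCs and -3.95 in ST-HSCs, and the ubiquitin ligase gene Mycbp2 one of -2.91 in MPPs, -5.60 in LT-HSCs and -5.90 in ST-HSCs. Acbd3 (-0.49), Dis3l (-0.74), Rc3h2 (-0.51), Clcn7 (-0.043) and Zzef1 (-2.16) likewise had MPP ratios at or below 0. Nqo2, a quinone reductase, was at 67.6, 27.6 and 25.3 CPM in WT and 2.26, 7.97 and 45.8 CPM in ING4-/-. Pomk was at 57.5, 42.1 and 44.7 CPM in WT and 20.5, 9.92 and 93.5 CPM in ING4-/-. For Nqo2 and Pomk the ING4-/- MPP level was above the WT level, and both ING4-/- HSC levels were below it. Low values that a single library shows were then counted within the ING4-/- genotype. Of 5579 protein-coding genes with at least 20 CPM in both other ING4-/- libraries, 16 (0.287%) were under an eighth of the lower of those values in ING4-/- MPPs, compared with 190 of 5936 (3.2%) in ING4-/- LT-HSCs and 41 of 5803 (0.707%) in ING4-/- ST-HSCs.

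Whether the genotype difference in MPPs differed from that in HSCs was tested with edgeR on counts as deposited, with LT-HSCs and ST-HSCs standing in as 2 HSC replicates and the lone MPP libraries assumed to vary like them. LT-HSCs and ST-HSCs are different populations, so the spread in this test includes their difference and is not that between repeat libraries. Of 9673 genes with 10 or more counts in all 6 libraries, 0 were called (0%), the smallest adjusted p was 0.99995, and 189 (1.95%) had an unadjusted p under 0.05, of which 55 were higher and 134 lower in MPPs. DESeq2 called 15 (0.155%), 6 higher and 9 lower. In simulated counts with the same design, edgeR missed most of the simulated 2-fold differences and made false calls among unchanged genes. It recovered a smaller share of genes with a log2 difference of -2 than with 2. The simulated counts had a lower dispersion than the data, whose common dispersion was 0.2288, and no WT background. The share recovered there cannot be carried over to these data. The MPP contrasts above remain descriptions of 1 library per genotype, and the edgeR test does not replace MPP replicates.

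Markers of other cell types were then examined in the MPP libraries. In these lists 28.6% to 71.2% of the WT MPP counts were expected as background, so sums are given after its subtraction. Erythrocyte markers summed to 35.5 corrected CPM in WT MPPs and 73.2 in ING4-/- MPPs, against 0 to 36.5 in WT HSCs and 70.8 to 121 in ING4-/- HSCs, with 3 of 9 kept. Hbb-bt had 25 and 1907 counts and Hba-a1 21 and 531 in WT and ING4-/- MPPs, whereas Alas2, Slc4a1 and Sptb were at 0 in ING4-/- MPPs. Granulocyte markers summed to 26.4 and 45.1 CPM, monocyte and macrophage markers to 80.1 and 22.6, B cell markers to 66.4 and 60.5, T and NK cell markers to 53.8 and 47.0, megakaryocyte markers to 62.2 and 114, mast cell and basophil markers to 56.9 and 11.4, and stroma and endothelium markers to 93.3 and 50.5. At 0 in ING4-/- MPPs were 3 of 10 granulocyte, 2 of 8 monocyte and macrophage, 5 of 8 B cell, 6 of 9 T and NK cell, 2 of 6 megakaryocyte, 4 of 6 mast cell and basophil and 3 of 8 stroma and endothelium markers. Sums were higher in ING4-/- MPPs for 3 of the 8 lists, those of erythrocytes, granulocytes and megakaryocytes, and the part of other cell types in the ratios was not tested. Among Y-linked genes, Ddx3y, Kdm5d, Uty and Eif2s3y had 668, 393, 264 and 470 counts in ING4-/- MPPs and 0.201 to 1.47 times background in WT MPPs, and Xist had 815 WT and 5904 ING4-/- counts. Y-linked transcripts were thus above background in ING4-/- MPPs and near or below it in WT MPPs, and the sex of the pooled mice and genotype cannot be told apart.

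Genes close to Ing4 were described as a group. Of 44 other protein-coding genes within 500 kb, 32 were kept, and of the 24 at or over 2 times background 2 had a ratio over 1 and 4 under -1, with a median of 0.31. Vwf had the lowest ratio of them in MPPs, Ncapd2, a condensin subunit, had a ratio of -1.34 and Lpcat3 one of 0.37.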

How the data were processed

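RNA-seq was analyzed for 6 sorted bone marrow populations, LT-HSCs, ST-HSCs and MPPs of WT and ING4-/- mice, with 1 library each. The authors deposited raw counts per gene, with no normalization, and the submitters' processing notes name the mm10 build. A company prepared and sequenced the libraries and ran the initial processing, and the aligner, counting program and strand setting are not given in the sources used here. Gene symbols came from GENCODE M21 (GRCm38), in which 49056 of 49315 identifiers were found. Replicates came from no separate cultures or animals, since each group has 1 library.

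Expected background (counts per kb of olfactory and vomeronasal receptor genes times exonic length) was subtracted from each count, with the remainder set to at least 1 count, and libraries of a population were scaled by TMM (edgeR 4.0.16, R 4.3.3). Genes were kept at 10 or more counts in both MPP libraries, and a log2 ratio over 1 or under -1 was counted as higher or lower. Total counts were 9363442 in WT MPPs and 39192588 in ING4-/- MPPs, so that a count of 0 allows up to 3 counts, or 0.320 and 0.0765 CPM. Counts carry no molecular identifiers, so 95% intervals (1.96 standard errors) cover counting error and the receptor spread only.

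The difference between MPPs and HSCs was tested by the genotype by MPP term of an edgeR quasi-likelihood fit to the deposited counts, with Benjamini-Hochberg adjustment at 0.05, which was tested on simulated data. DESeq2 1.42.0 was the alternative. Other background multiples, scalings, count minimums, gene subsets, removal of a length trend, population as a block and each HSC library left out were tried, and a minimum of 4 times background was added after seeing the data.

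Members and lists were chosen with earlier results of these data known. Named genes were Ing4, the sort markers and 6 genes the study names (Cdkn1c, Cdkn1a, Trp53, Txn1, Gpx1 and Mki67), up to 3 highest and 3 lowest members of each list at or over 2 times background, the 10 highest and 10 lowest ratios, the 10 genes farthest beyond both HSC ratios in each direction, and genes within 500 kb of Ing4. Other list members named in the text were chosen after their values were seen, and some genes that the rule or the lists hold are not reported here. Promoter sequences came from RefSeq (GRCm38.p6).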

Additional observations from a re-analysis of the deposited data

Results flagged for a closer look

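In a comparison of 1 MPP library with 2 HSC libraries of different populations per genotype, DESeq2 gave an adjusted p under 0.05 to the interaction of 15 genes, whereas edgeR called 0 of the same 9673 genes and 189 had an unadjusted p under 0.05. The MPP libraries have no replicate, and 5 of the 15 (Ak4, Tfeb, Lrrc75a, Ncoa6 and Tlk2) had a WT count under 2 times background in at least 1 population. The log2 difference, MPP minus HSC, was positive for 6 genes. It was 6.26 for Slc8b1, 5.72 for Tlk2, 5.67 for Strn3, 5.21 for Ncoa6, 5.06 for Tet2 and 4.94 for Nr2c2. It was negative for 9 genes, at -6.16 for Ak4, -5.95 for Tfeb, -5.80 for Lrrc75a, -5.15 for 4930402H24Rik, -5.10 for Tmem63a, -4.71 for Snapc4, -4.70 for Zw10, -4.62 for Ccdc93 and -3.62 for Tango6. Tfeb, the master regulator of lysosomal genes, had 229 WT and 19 ING4-/- counts in MPPs. Tet2, by contrast, had 512 counts in ING4-/- MPPs and 13 and 21 in ING4-/- LT-HSCs and ST-HSCs.

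For 14 other genes named in the text, with WT counts of at least 2 times background in every population, the MPP ratio had the opposite sign to both HSC ratios. The opposite sign itself was not tested, and edgeR's interaction test called none of them (adjusted p 0.99995 for each). The sign was opposite for 830 (13.8%) of the 6011 protein-coding genes compared between MPPs and HSCs. The MPP ratio was -2.49 for Ezh1, -1.70 for Stat2 and -1.55 for Pfkm. It was 1.16 for Pinx1, 1.09 for Phf1, 1.07 for Pomk, 1.04 for Aldoc, 1.01 for Zfp52, 0.86 for Nqo2, 0.63 for mt-Nd4, 0.41 for Ezh2, 0.18 for Sdha, 0.17 for Pank1 and 0.041 for Grb10. The intervals of Ezh2, Grb10, Nqo2, Pank1 and Phf1 included 0.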

How the results depend on the processing

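Counts of genes past 2-fold depended on how genes near the WT background were treated. Genes with a ratio over 1 numbered 2762 as reported, 1782 with a minimum of 50 counts, 1272 with WT at least 2 times background and scaling recomputed, and 659 at 4 times background. Genes under -1 numbered 2852 as reported, 4414 with a minimum of 1 count and 1101 at 4 times background. Counts as deposited gave 2168 over 1 and 3339 under -1, against 2762 and 2852 after subtraction. Upper-quartile scaling moved the median of all genes from 0.019 to 0.12, and removal of the length trend to 0.12. Of 31 lists, 17 kept their side of the all-genes median in all 12 settings, among them immediate-early, cytosolic and mitochondrial ribosomal, respiratory, proteasome, redox, NF-kappaB, p53 and DNA methylation and Polycomb genes, and 14 did not, including mitosis, quiescence-associated, HSC-associated and mitochondrial genome genes. The ratio of Xrn1 was -1.39 as reported and 0.038 with the length trend removed, which is by construction a shift for its exonic length.

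In the interaction test, population as a replicate block gave 0 calls in either direction (smallest adjusted p 0.98011), as did background-subtracted counts (0.99986). Leaving out 1 HSC library gave 0 to 330 calls higher and 0 to 198 lower. These were 108 higher and 62 lower without ING4-/- LT-HSCs, 330 and 198 without ING4-/- ST-HSCs, and 0 without either WT library, and a lone HSC library is then assumed to vary like the other genotype's pair. DESeq2 called 6 higher and 9 lower. The cause of these differences was not tested. Depth sets that a count of 0 allows up to 0.320 CPM in WT MPPs and 0.0765 CPM in ING4-/- MPPs.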
